A study of Mus musculus with 31 samples.

Results

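Liver RNA of 5 mice (3 males and 2 females) that had received *Upf3b*-GalNAc-ASO, 10 mg/kg, was compared with that of 4 mice (2 of each sex) that had received Control-GalNAc-ASO, 15 mg/kg. These 9 mice, chosen by the treatment and dose in their labels, are part of 31 sequenced mice, and the comparison asks which liver genes change when an ASO lowers *Upf3b* at the lower of its doses. All were adult hFIX-R29X mice aged 8 to 14 weeks, which carry a human factor IX minigene with a premature stop codon under the human transthyretin promoter and lack the mouse gene *F9*. By the protocol each received 6 subcutaneous injections, 1 every 5 days, and was killed 48 h after the last, though the labels also describe the doses as weekly. The control group received another sequence at a higher dose, so sequence and dose cannot be told apart. Levels in 11 mice of the same strain given DPBS (6 female, 5 male), a salt buffer without ASO, are given beside the results. At the end, 11 further animals are used, all dosed at 20 mg/kg, of which 5 (3 males and 2 females) received *Upf3b*-GalNAc-ASO and 6 (3 of each sex) Control-GalNAc-ASO.

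Depth, estimated from the TPM worth of 1 read, was between 1020676 and 4606674 reads in the *Upf3b*-GalNAc-ASO mice. It was between 3066972 and 5864441 reads in the controls. The study states a higher average depth for its libraries. Values are TPM for each gene, transcript abundances scaled to the size of the library, and 3 reads, taken as the floor of detection for counting error, were worth 0.651 to 2.94 TPM and 0.512 to 0.978 TPM in these groups. The mouse with the fewest reads was *Upf3b*-GalNAc-ASO replicate 3, a female. Its median correlation with the other mice of its group, across tested genes on the log2 scale, was 0.661, whereas the other 8 mice had values between 0.825 and 0.891 with theirs. The fits are therefore given for all 9 mice and without this mouse, which leaves 1 female in the *Upf3b*-GalNAc-ASO group. *Ddx3y*, on the Y chromosome, was at 20.2 to 49.6 TPM in the mice labelled male and at 0 to 1.95 TPM in those labelled female.

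All 14 hepatocyte markers were detected in all 9 mice. Their summed level was 26534 to 71433 TPM in the *Upf3b*-GalNAc-ASO mice, lowest in replicate 3, and 54957 to 69404 TPM in the controls. The sum of 15 Kupffer cell and macrophage markers was 294 to 923 TPM against 303 to 539 TPM, and that of 12 endothelial markers was 1217 to 2492 TPM against 780.4 to 1335 TPM. For these 3 cell types the groups overlapped. By single genes, 13 of the 14 hepatocyte markers had a negative log2 fold change in 9 mice (median -0.45) and 12 without replicate 3 (median -0.33). Of all genes tested, 48.4% had a positive one in 9 mice and 52.4% without replicate 3. The sum of 9 cholangiocyte markers did not overlap, at 26.8 to 30.9 TPM in treated mice against 11.2 to 25.01 TPM, with 8.36 to 37.4 TPM in DPBS mice, and *Cftr* was at 0 in all 9 mice. Of these markers 2 were expressed highly enough to test, and neither passed. The part of cell types in the results was not tested. In whole liver, fewer cells of a type and less RNA per cell cannot be told apart.

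Nonsense-mediated mRNA decay (NMD) removes mRNAs whose stop codon lies far upstream of an exon junction, and it also tunes the level of many normal mRNAs. *Upf1*, *Upf2* and *Upf3b* form its core. *Upf3b* links the exon junction complex, left behind by splicing, to *Upf2*. Both ASOs are gapmers, DNA-like strands with modified wings that recruit RNase H to the RNA they pair with, and the GalNAc sugars direct them to hepatocytes through the asialoglycoprotein receptor. Their sequences show what was targeted and how far the control differs from it. The study lists them for its *Upf3b* and control ASOs, and a separate sequence for the conjugates was not given in the sources used here. Capitals mark the 10-base gap between wings of 3 bases each.
*Upf3b* ASO: ggaTATAGATGTAacg
Control ASO: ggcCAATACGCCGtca
*Upf3b* target: cgttacatctatatcc
The target lies on the minus strand of the mouse genome build GRCm38 at X:37091973-37091988, in the 3′ untranslated part of the last of 10 exons of *Upf3b*. Among annotated transcripts it occurred in *Upf3b* alone, no gene held it with 1 mismatch, and 12 genes held it with 2 mismatches. With every mouse kept, 6 of these genes were tested and none passed. Without replicate 3, 7 were tested, and *Hsd3b3* was lowered and *Zfp280d* raised. In that fit 0.989% of all genes tested were changed. The target of the control ASO had no match with 0 or 1 mismatches, and its 4 genes with 2 mismatches included 1 tested gene, which did not pass the test.

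*Upf3b* was the targeted mRNA. In replicates 1 to 5 of the *Upf3b*-GalNAc-ASO mice it was at 5.97, 20.7, 53.7, 3.95 and 23.3 TPM, and in replicates 1 to 4 of the controls at 66.9, 27.1, 58.5 and 78.7 TPM. Replicate 3 lay among the controls, and the other 4 treated mice lay below every control. DPBS mice had 33.8 to 136 TPM (median 104). The mean was 37.3% of the control mean (21.5 ± 19.96 TPM, n = 5, against 57.8 ± 22.1 TPM, n = 4, SD), and 23.3% of it without replicate 3 (13.5 ± 9.94 TPM, n = 4). In the fit across all genes, on the log2(TPM + 1) scale with sex as a covariate, the log2 fold change was -1.73 ± 0.61 (adjusted p = 0.211), with its SE, and -2.22 ± 0.54 (adjusted p = 0.0597) without replicate 3. *Upf3b* alone, by an exact permutation test of its log2 levels, two-sided, had p = 0.0317 over the 126 splits of 9 mice (smallest possible 0.0159) and p = 0.0286 over the 70 splits of 8 mice, the smallest possible. *Upf3b* was therefore lower by the test of this gene alone and not by the adjusted p over all genes. Against DPBS the log2 fold change was -2.57 (adjusted p = 0.00455).

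Of 18 NMD factors, 14 were expressed highly enough to test. *Upf2*, which binds both *Upf3b* and *Upf1*, was the only one that passed the test, with 163, 118, 681, 101 and 143 TPM in the *Upf3b*-GalNAc-ASO mice and 35.3, 13.1, 47.4 and 80.2 TPM in the controls. All 5 treated mice lay above all 4 controls, replicate 3 far above the rest, while DPBS mice had 14.8 to 145 TPM (median 78.95). The log2 fold change was 2.39 ± 0.47 (adjusted p = 0.0491), and 1.99 ± 0.40 (adjusted p = 0.0228) without replicate 3. *Smg9*, a partner of the kinase *Smg1*, was also above every control in all 5 mice, at 12.9 to 36.8 TPM against 2.92 to 10.6 TPM, but had adjusted p of 0.128 in 9 mice and 0.0551 without replicate 3. *Upf3a*, the paralog of *Upf3b*, was at 4.22 to 61.7 TPM against 3.81 to 10.4 TPM, its highest value being replicate 3. Its log2 fold change was 0.92 ± 0.67 (adjusted p = 0.516), and 0.25 ± 0.57 (adjusted p = 0.867) without that mouse. The helicase *Upf1* (1.48 ± 0.80, adjusted p = 0.380, and 1.81 ± 0.99, adjusted p = 0.420, without replicate 3), the kinase *Smg1* (0.50 ± 0.51, adjusted p = 0.648, and 0.40 ± 0.51, adjusted p = 0.747, without replicate 3), and *Smg5* (0.34 ± 0.82, adjusted p = 0.873, and 1.05 ± 0.69, adjusted p = 0.472, without replicate 3) and *Smg6* (0.12 ± 0.38, adjusted p = 0.908, and -0.16 ± 0.34, adjusted p = 0.855, without replicate 3), which act on the marked mRNA, did not pass the test in either fit. *Smg8* was too low to test, with at most 7.73 TPM. The median log2 fold change of the 14 factors was 0.42 in 9 mice and 0.38 without replicate 3, against -0.03 and 0.04 for all genes tested. At 20 mg/kg, in other mice, the median of 15 factors was -0.48, and that of the 14 was -0.47 in controls against DPBS, 10 of them being lower.

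**Figure D1:**
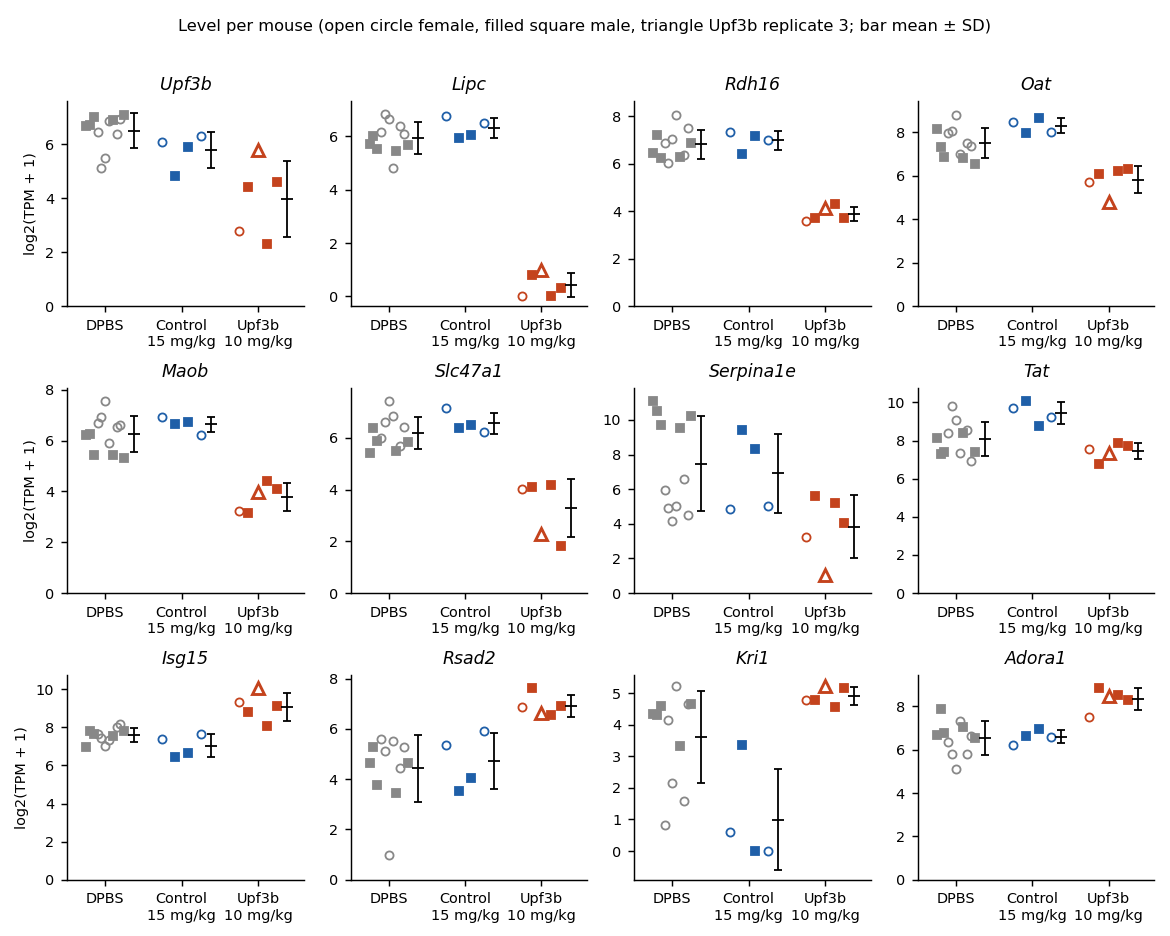
Levels of 12 genes in each mouse, as log2(TPM + 1), for DPBS (n = 11), Control-GalNAc-ASO 15 mg/kg (n = 4) and *Upf3b*-GalNAc-ASO 10 mg/kg (n = 5); open circles are females, filled squares males, the triangle replicate 3, and the bars the mean ± SD. *Lipc*, *Rdh16*, *Oat*, *Maob*, *Slc47a1* and *Tat* lay below every control in all 5 treated mice, *Isg15*, *Rsad2*, *Kri1* and *Adora1* above every control, and *Serpina1e* separated the groups within each sex.

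In all 9 mice, 27 of 9166 genes tested (0.295%) had an adjusted p under 0.05, 11 of them raised (0.12%) and 16 lowered (0.175%). Without replicate 3 they were 91 of 9203 genes (0.989%), 46 raised (0.5%) and 45 lowered (0.489%). A positive log2 fold change was seen in 48.4% of all genes tested in 9 mice and 52.4% without replicate 3. These shares are the background for the counts of list members by sign given below. A shift of each mouse to the same median log2 level gave 27 genes in 9 mice and 111 without replicate 3, of which 42 were raised and 69 lowered. The 27 genes were all among the 91. The other 64 had the same sign in 9 mice, with adjusted p between 0.0579 and 0.264, and 53 of them were under 0.1. Replicate 3 was the highest *Upf3b*-GalNAc-ASO mouse for 9 of the 11 raised genes and the lowest for 5 of the 16 lowered ones. The treated and control mice did not overlap for 23 of the 27 genes and, within each sex, for all 27, where 4.81% and 10.9% of all genes tested did not. Without replicate 3, 69 of the 91 genes did not overlap (6.97% of all genes tested).

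The number of genes moved with single mice. From 27 it came to 431 without *Upf3b*-GalNAc-ASO replicate 1, to 14 without replicate 2 and to 13 without replicate 5, and to 7, 6, 2 and 4 without control replicates 1 to 4. The 2 genes left without control replicate 3 were *Lipc* and *Rdh16*, which passed whichever mouse was left out. From 91 it came to 18 without *Upf3b*-GalNAc-ASO replicate 1, 232 without replicate 4, 46 without replicate 5, and 37, 21 and 20 without control replicates 1, 2 and 3. By the thresholds of the study, which take an unadjusted p up to 0.01 together with a change of 2-fold or more, 441 genes were counted in 9 mice (4.81%) and 446 without replicate 3 (4.85%). The p here was that of limma. The study took the median p of single replicates under a model of its reference cohorts, so these counts cannot be set against its own.

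**Figure D2:**
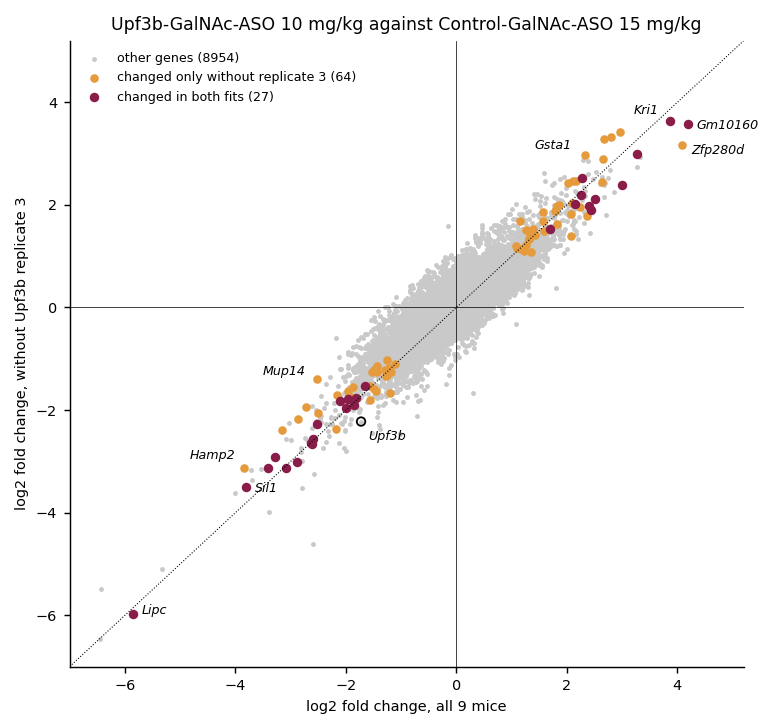
Log2 fold change of each gene tested in both fits, all 9 mice on the horizontal axis and without *Upf3b*-GalNAc-ASO replicate 3 on the vertical axis; the dotted line marks equal values and the open circle *Upf3b*. The 27 genes changed in both fits lie close to the line, from *Lipc* at -5.86 to *Gm10160* at 4.19, and the 64 changed only without replicate 3 lie in the same quadrants.

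*Lipc*, the gene of hepatic lipase, which hydrolyses triglycerides and phospholipids of circulating lipoproteins, had the largest fall of the genes that passed the test. It was at 0, 0.746, 0.980, 0 and 0.258 TPM in the *Upf3b*-GalNAc-ASO mice and at 107, 60.8, 65.1 and 90.97 TPM in the controls, with 27.02 to 114 TPM (median 63.5) in DPBS mice. The treated mice had 0 to 3 reads each and the controls 236 to 627, so the groups were far apart and the treated level was at the floor. The log2 fold change was -5.86 ± 0.51 (adjusted p = 9.01e-05), and -5.98 ± 0.49 (adjusted p = 9.20e-06) without replicate 3. Because the treated level is near 0, its size depends on the pseudocount, and over all settings tried in 9 mice it ran from -6.57 to -3.93. Of the 33 tested genes for lipases and lipoprotein metabolism, no other passed in either fit, and their median log2 fold change was -0.29 in 9 mice and -0.21 without replicate 3.

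The synthesis and handling of fatty acids changed in single genes. *Scd1*, the desaturase that makes monounsaturated fatty acids, was at 1347, 1801, 825, 999 and 1934 TPM against 4542, 4491, 5038 and 2409 TPM, every treated mouse below every control. It fell by 3.14-fold in 9 mice (log2 fold change -1.65 ± 0.31, adjusted p = 0.0384, and -1.52 ± 0.27, adjusted p = 0.00959, without replicate 3) and was at 1761 to 4987 TPM (median 2509.6) with DPBS. It was the only changed gene of 28 for fatty acid and triglyceride synthesis, whose median was -0.46 in 9 mice and -0.33 without replicate 3. *Ptdss1*, which makes phosphatidylserine, was at 11.8 to 59.7 TPM against 84.1 to 182 TPM (log2 fold change -2.12 ± 0.41, adjusted p = 0.0491, and -1.81 ± 0.35, adjusted p = 0.0192, without replicate 3). *Acot3*, a peroxisomal acyl-CoA thioesterase, was at 11.4, 0, 10.8, 0 and 0 TPM against 79.6, 4.29, 7.44 and 58.04 TPM and differed between the sexes, so that the groups overlapped over both sexes and not within each. Its log2 fold change was -2.64 ± 0.52 (adjusted p = 0.0491), and -2.65 ± 0.55 (adjusted p = 0.0273) without replicate 3, and it rested on 0 to 35 reads in treated mice. The cytosolic thioesterase *Acot1* passed only without replicate 3, in which it was at 0 (-2.38 ± 0.39 (adjusted p = 0.00827), against -3.16 ± 0.64 (adjusted p = 0.0579) in 9 mice). These were the changed members of 46 tested for fatty acid oxidation and ketogenesis, and no gene of 25 for cholesterol synthesis or 16 for bile acid synthesis passed in either fit. *Agmo*, which cleaves ether lipids, passed without replicate 3 (-2.38 ± 0.46, adjusted p = 0.0199, and -2.18 ± 0.48, adjusted p = 0.0654, in 9 mice).

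Several enzymes of retinol, amine and drug metabolism fell. *Rdh16*, which oxidises retinol to retinal, was at 11.1, 12.4, 16.7, 18.8 and 12.3 TPM against 164, 85.2, 143 and 128 TPM, and at 65.4 to 269 TPM (median 116) with DPBS. Replicate 3 lay within its group, and the log2 fold change was -3.08 ± 0.35 (adjusted p = 0.00151) with it and -3.13 ± 0.34 (adjusted p = 0.000258) without it. No other gene of 31 for retinol metabolism passed. *Maob*, the mitochondrial monoamine oxidase B, was at 8.44, 7.96, 14.7, 20.2 and 15.98 TPM against 121, 100.1, 106 and 73.7 TPM, with 39.2 to 186 TPM (median 76.0) in DPBS mice, and its log2 fold change was -2.89 ± 0.38 (adjusted p = 0.00473), and -3.004 ± 0.37 (adjusted p = 0.000712) without replicate 3. *Dpyd*, which starts the breakdown of pyrimidine bases, was at 6.51 to 18.6 TPM against 47.6 to 108 TPM (-2.62 ± 0.42, adjusted p = 0.0178, and -2.67 ± 0.42, adjusted p = 0.00582, without replicate 3). *Iah1*, an esterase, was at 28.3 to 35.2 TPM against 99.8 to 153 TPM (-1.86 ± 0.31, adjusted p = 0.0197, and -1.89 ± 0.29, adjusted p = 0.00582, without replicate 3), though DPBS mice reached down to 19.4 TPM.

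Conjugating enzymes moved in both directions. *Gstt3*, a theta-class glutathione S-transferase, was at 53.9, 27.1, 38.3, 17.4 and 34.02 TPM against 241, 61.99, 91.9 and 268 TPM, below every control, with a log2 fold change of -1.96 ± 0.35 (adjusted p = 0.0295), and -1.78 ± 0.32 (adjusted p = 0.0105) without replicate 3. Control females had 241 and 268 TPM and control males 61.99 and 91.9 TPM. As log2 levels less the mean of the controls, treated mice were at -2.93 to -1.35 and DPBS mice at -1.69 to 1.17, so these overlapped. *Gsta1*, an alpha-class enzyme, was at 33.4, 32.8, 3.35, 107 and 70.2 TPM against 5.03, 8.28, 7.19 and 1.40 TPM. Replicate 3 alone lay among the controls, so it rose without that mouse (2.98 ± 0.47 (adjusted p = 0.00635)) and did not pass with it (2.33 ± 0.63 (adjusted p = 0.114)). DPBS mice had 0 to 4.64 TPM (median 0.757), and since alpha-class genes are close copies, reads shared between them leave its level uncertain. Of 20 glutathione S-transferase genes tested, these were the changed ones. *Sult1a1*, which sulfates phenols, was at 121 to 289 TPM against 338 to 725 TPM and passed without replicate 3 (-1.22 ± 0.23, adjusted p = 0.0159, and -1.50 ± 0.31, adjusted p = 0.0592, in 9 mice). It was the only changed gene of 21 then tested for glucuronidation and sulfation, whose median was -0.46, and -0.74 over 20 genes in 9 mice. None of 33 cytochrome P450 genes of families 1 to 3 passed in either fit. Their median was -0.39 in 9 mice and -0.26 without replicate 3, and the smallest p among them were those of *Cyp2j9* (-2.27 ± 0.73, adjusted p = 0.179, and -2.27 ± 0.78, adjusted p = 0.170, without replicate 3) and *Cyp2c67* (1.10 ± 0.42, adjusted p = 0.232, and 1.06 ± 0.41, adjusted p = 0.217, without replicate 3).

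Amino acid breakdown was lowered at a few steps. *Oat*, the ornithine aminotransferase of pericentral hepatocytes, was at 51.3, 67.7, 26.5, 72.5 and 77.3 TPM against 359, 252, 407 and 258 TPM, replicate 3 being the lowest of all. DPBS mice had 91.97 to 446 TPM (median 166), all above the treated mice. The log2 fold change was -2.53 ± 0.33 (adjusted p = 0.00473), and -2.28 ± 0.27 (adjusted p = 0.000625) without replicate 3. *Tat*, which transaminates tyrosine, was at 184, 108, 164, 229 and 211 TPM against 849, 1063, 436 and 595 TPM (-1.99 ± 0.34, adjusted p = 0.0237, and -1.96 ± 0.32, adjusted p = 0.00820, without replicate 3), and its DPBS levels of 122 to 897 TPM (median 275) overlapped both groups. *Csad*, of taurine synthesis, and *Gnmt*, which methylates glycine, passed without replicate 3, with -1.56 ± 0.33 (adjusted p = 0.0281) and -1.18 ± 0.23 (adjusted p = 0.0199), against -1.88 ± 0.40 (adjusted p = 0.0625) and -1.21 ± 0.27 (adjusted p = 0.0654) in 9 mice. Thus 2 of 53 genes were lowered in 9 mice and 4 without replicate 3, with medians of -0.32 and -0.11. None of 13 urea cycle genes passed, and *Oat* was the only changed one of 17 pericentral genes tested in 9 mice, whose median was -0.62, and -0.57 over 18 genes without replicate 3.

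Of 32 genes of glucose metabolism, *Pck1*, the rate-limiting enzyme of gluconeogenesis, was lowered without replicate 3. It was at 4092, 3462, 4104, 3227 and 2528 TPM against 10762, 6937, 5704 and 8349 TPM, every treated mouse below every control, and at 1441 to 9804 TPM (median 5248) with DPBS. The log2 fold change was -1.11 ± 0.20 (adjusted p = 0.0147), and -1.12 ± 0.25 (adjusted p = 0.0654) in 9 mice. *Usp2*, a deubiquitinase whose liver level follows the clock, was lowered without replicate 3 (-2.06 ± 0.42, adjusted p = 0.0256, and -2.51 ± 0.53, adjusted p = 0.0593, in 9 mice), 1 of 20 clock genes with a median of -0.73, and -0.76 in 9 mice. Of these, 16 had a negative log2 fold change in 9 mice and 17 without replicate 3. The mean log2 level of the list was 4.41 to 5.29 in treated mice, 5.39 to 5.64 in controls and 5.15 to 5.96 in DPBS mice. At 20 mg/kg, in other mice, the median of 19 clock genes was -0.16. The labels give no hour of collection.

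Among 33 hepatic transporters, 27 had a negative log2 fold change in 9 mice and the median was -0.46, and -0.37 without replicate 3, while *Slc47a1* alone passed the test in 9 mice. The mean log2 level of the list was 5.39 to 6.14 in treated mice, 6.32 to 6.49 in controls and 5.84 to 6.38 in DPBS mice, so that treated mice overlapped DPBS mice, and 28 of the 33 genes were higher in controls than in DPBS mice (median 0.25). *Slc47a1*, which exports organic cations into bile, was at 15.3, 16.2, 3.92, 17.1 and 2.58 TPM against 142, 82.96, 89.03 and 73.4 TPM and at 41.96 to 169.7 TPM (median 62.7) with DPBS. Its log2 fold change was -3.28 ± 0.54 (adjusted p = 0.0184), and -2.92 ± 0.48 (adjusted p = 0.00891) without replicate 3. *Slc16a10*, a carrier of aromatic amino acids, was at 8.82 to 62.1 TPM against 72.1 to 87.3 TPM and passed only without replicate 3 (-1.72 ± 0.39, adjusted p = 0.0438, and -1.94 ± 0.42, adjusted p = 0.0654, in 9 mice). *Kcnk5*, a potassium channel, was at 0 to 10.1 TPM against 21.2 to 53.9 TPM and did likewise (-2.18 ± 0.45, adjusted p = 0.0273, and -2.86 ± 0.64, adjusted p = 0.0663, in 9 mice). In the endoplasmic reticulum, *Sil1*, the exchange factor of the chaperone BiP, was at 1.30, 4.98, 0, 5.21 and 0 TPM against 33.8, 28.6, 35.3 and 30.3 TPM. Treated mice had at most 24 reads and controls at least 93, and the log2 fold change was -3.82 ± 0.65 (adjusted p = 0.0237), and -3.49 ± 0.60 (adjusted p = 0.00951) without replicate 3. It was the only changed gene of 39 for folding and the unfolded protein response, whose median was -0.18, and -0.22 over 38 genes without replicate 3. In DPBS mice it was at 0 to 40.5 TPM (median 32.5).

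Major urinary proteins and alpha-1 antitrypsin copies, secreted proteins that depend on growth hormone and sex, had the lowest median of all 34 lists, -1.02 over 21 genes in 9 mice and without replicate 3. Of these, 18 had a negative log2 fold change, and 2 were lowered in 9 mice and 6 without replicate 3. The mean log2 level of the list was 5.55 to 9.14 in treated mice, 6.27 to 9.53 in controls and 5.41 to 9.44 in DPBS mice. In controls against DPBS, 18 of 20 genes tested were higher in controls (median 0.51). *Serpina1e* was at 8.42 and 1.05 TPM in treated females and at 47.9, 36.5 and 15.6 TPM in treated males. Control females had 28.3 and 32.2 TPM and control males 673 and 319 TPM. Treated mice were thus below controls of their own sex, with a log2 fold change of -3.41 ± 0.50 (adjusted p = 0.00977), and -3.12 ± 0.47 (adjusted p = 0.00582) without replicate 3. *Mup17* ran likewise, at 15.1 to 344 TPM against 72.7 to 1071 TPM (-2.60 ± 0.39, adjusted p = 0.00977, and -2.56 ± 0.37, adjusted p = 0.00519, without replicate 3), and *Mup1* (-1.59 ± 0.30, adjusted p = 0.0181, and -1.49 ± 0.33, adjusted p = 0.0663, in 9 mice) and *Mup18* (-1.76 ± 0.40, adjusted p = 0.0463, and -1.93 ± 0.43, adjusted p = 0.0654, in 9 mice) passed without replicate 3. These genes are near-identical copies among which reads cannot be assigned surely, so the levels of single members are uncertain. DPBS males and females were as far apart, at 744 to 2149 TPM and 16.6 to 96.02 TPM of *Serpina1e*.

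The growth hormone receptor gene *Ghr* was lowered without replicate 3, at 42.5, 74.4, 55.8, 94.6 and 74.99 TPM in all treated mice and 171, 222, 163 and 86.4 TPM in controls (-1.32 ± 0.29, adjusted p = 0.0401, and -1.26 ± 0.32, adjusted p = 0.0882, in 9 mice). It was 1 of 20 genes of that axis. Of 19 genes for steroid hormone metabolism, 17 had a negative log2 fold change in 9 mice (median -0.66) and 15 without replicate 3 (median -0.38), and *Hsd3b3* and *Hsd11b1* were lowered without replicate 3. *Hsd11b1*, which regenerates active glucocorticoid, was at 85.2 to 223 TPM against 238 to 473 TPM (-1.26 ± 0.29, adjusted p = 0.0463, and -1.44 ± 0.33, adjusted p = 0.0730, in 9 mice). *Hsd3b3* was at 12.99, 40.1, 72.5, 34.5 and 33.9 TPM against 83.04, 82.01, 107 and 50.03 TPM, where replicate 3 lay among the controls (-1.21 ± 0.44 (adjusted p = 0.218) with it and -1.67 ± 0.33 (adjusted p = 0.0199) without). *Hamp2*, a copy of the hepcidin gene, was at 0 to 3.34 TPM against 5.59 to 183 TPM and passed without replicate 3 (-3.14 ± 0.70, adjusted p = 0.0438, and -3.84 ± 0.83, adjusted p = 0.0640, in 9 mice). Its treated levels were near the floor, and DPBS mice ran from 0.189 to 388 TPM. No other gene of 28 acute-phase proteins passed, and none of 29 for coagulation or 26 for complement.

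**Figure D3:**
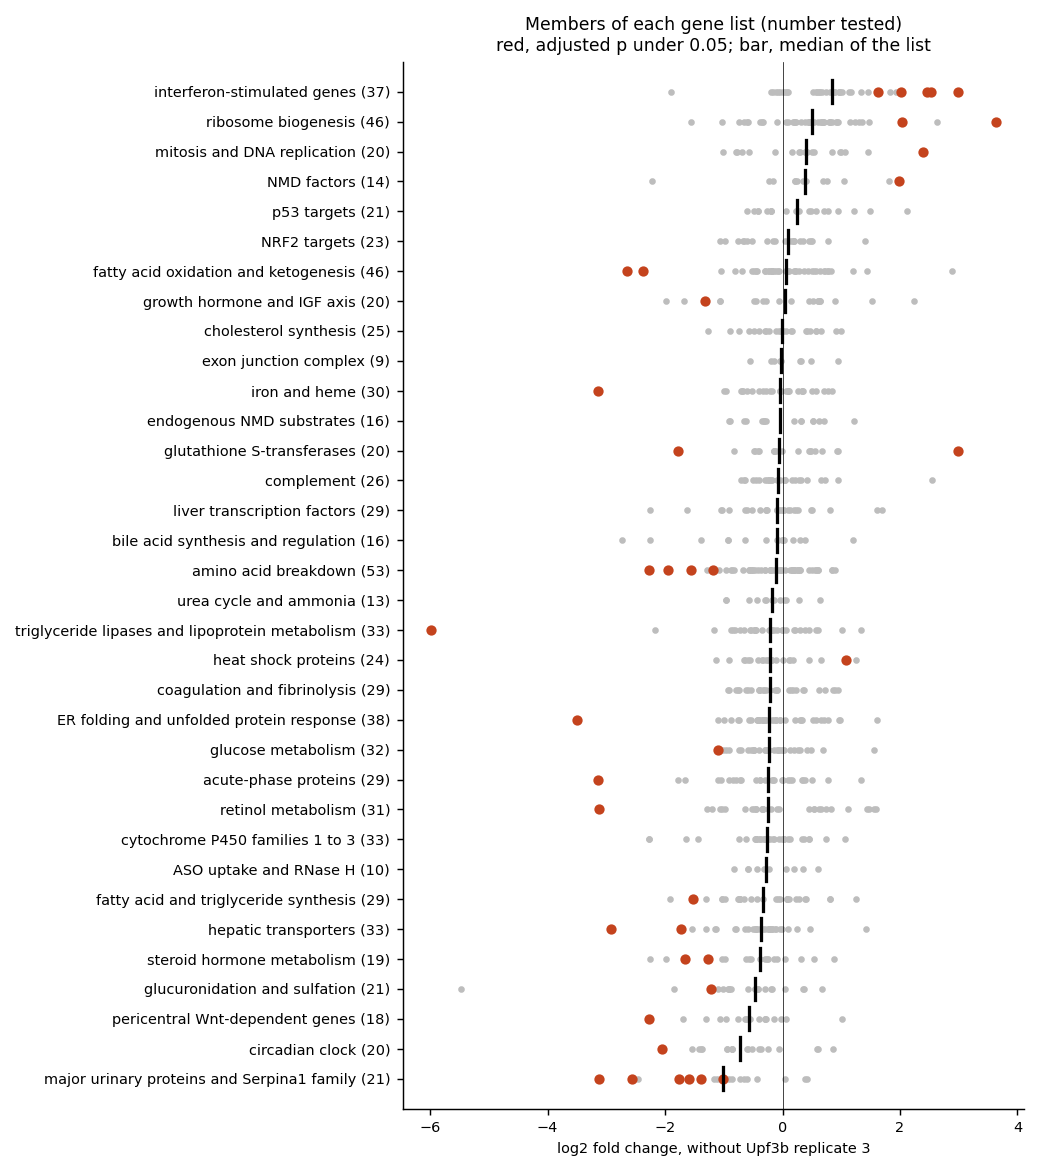
Log2 fold change without *Upf3b*-GalNAc-ASO replicate 3 of each tested member of 34 gene lists, ordered by the median (black bar), with the number tested in brackets; red points have an adjusted p under 0.05. The median ran from -1.02 for major urinary proteins and Serpina1 copies to 0.85 for interferon-stimulated genes, against 0.04 for all genes tested, and most lists held 0 or 1 changed member.

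Interferon-stimulated genes had the highest median of the 34 lists, 0.85 in both fits over 37 genes, of which 28 had a positive log2 fold change in 9 mice and 31 without replicate 3. *Isg15*, *Ifi44* and *Rsad2* rose in 9 mice, and *Ifit1* and *Zbp1* joined them without replicate 3. The mean log2 level of the list was 5.16 to 5.53 in the *Upf3b*-GalNAc-ASO mice, above the 4.07 to 5.15 of the controls and the 3.94 to 5.01 of the DPBS mice. *Isg15*, a ubiquitin-like protein attached to others, was at 642, 449.5, 1078, 270.5 and 558 TPM against 168, 84.9, 99.8 and 203 TPM, and the groups did not overlap. DPBS mice had 126 to 291 TPM (median 199), and the log2 fold change was 2.15 ± 0.31 (adjusted p = 0.00888) with replicate 3, the highest mouse, and 2.01 ± 0.27 (adjusted p = 0.00210) without it. *Rsad2*, an antiviral enzyme, was at 115, 197, 96.99, 91.8 and 120.4 TPM against 39.7, 10.5, 15.4 and 59.3 TPM (2.27 ± 0.44, adjusted p = 0.0491, and 2.53 ± 0.41, adjusted p = 0.00782, without replicate 3). *Ifi44* was at 27.3, 12.9, 103, 31.5 and 22.7 TPM against 3.58, 0, 2.48 and 10.5 TPM (3.26 ± 0.59, adjusted p = 0.0295, and 2.99 ± 0.60, adjusted p = 0.0228, without replicate 3). *Ifit1*, which binds foreign RNA, was at 80.4, 66.9, 198, 50.6 and 56.05 TPM against 26.04, 16.1, 12.7 and 56.05 TPM, replicates 4 and 5 lying at or below the highest control (1.62 ± 0.35, adjusted p = 0.0363, and 1.82 ± 0.38, adjusted p = 0.0579, in 9 mice). *Zbp1*, a sensor of nucleic acids, was at 21.6 to 70.2 TPM against 3.03 to 13.4 TPM (2.47 ± 0.41, adjusted p = 0.00827, and 2.11 ± 0.46, adjusted p = 0.0654, in 9 mice). Beside these rises, the summed Kupffer cell and endothelial markers overlapped between the groups as given above. By single genes, 6 of 12 tested Kupffer cell and macrophage markers had a positive log2 fold change in 9 mice (median 0.05). Without replicate 3 it was 9 of 13 (median 0.52). Of 12 endothelial markers, 5 had a positive one in either fit (medians -0.28 and -0.04). None of these markers passed. The lymphocyte sum was 5.98 to 55.8 TPM against 11.4 to 16.9 TPM. The part of these cell types in the result was not tested.

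The promoters of these genes are shown because they rose together. Interferon acts through factors that bind paired GAAA blocks, so GAAA, any 2 bases and GAAA again were searched on both strands in the 300 bases around each start site (250 before and 50 after). It occurred in 3.99% of 27025 promoters (1079), in 3.86% of 7055 of the tested genes, in 58.6% of 29 tested genes of the interferon list, and in 3 of the 4 changed genes with a promoter sequence. Overlapping matches were counted apart. The stretches holding them, on the gene's own strand from RefSeq for build GRCm38, have the matches in capitals, a match on the other strand reading as TTTC, 2 bases and TTTC.
Ifit1: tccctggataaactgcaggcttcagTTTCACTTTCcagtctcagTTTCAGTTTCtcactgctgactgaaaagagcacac
Isg15: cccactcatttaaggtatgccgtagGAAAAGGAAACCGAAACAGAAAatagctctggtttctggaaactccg
Rsad2: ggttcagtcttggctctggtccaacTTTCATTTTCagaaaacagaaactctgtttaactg
They lie at 19:34640760-34640838 on the plus strand, 4:156200850-156200921 on the minus strand and 12:26456538-26456597 on the minus strand, with 2, 3 and 1 matches. The promoter of *Ifi44* held no match, and that of *Zbp1* was not analysed here.

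Other raised genes included a few that act in the nucleolus. *Kri1*, needed for the small ribosomal subunit, was at 26.6, 26.4, 36.3, 22.8 and 34.7 TPM against 0.512, 9.16, 0 and 2.57e-05 TPM, so that 3 of the 4 controls stood near 0, while DPBS mice had 0.758 to 36.3 TPM (median 18.9). Its log2 fold change was 3.86 ± 0.67 (adjusted p = 0.0239), and 3.64 ± 0.69 (adjusted p = 0.0178) without replicate 3, and that of controls against DPBS -2.68 (adjusted p = 0.691). *Nat10*, which acetylates ribosomal RNA, was at 28.3 to 148 TPM against 4.99 to 62.4 TPM and passed without replicate 3 (2.03 ± 0.44, adjusted p = 0.0324, and 2.09 ± 0.43, adjusted p = 0.0579, in 9 mice). Of 46 genes for ribosome biogenesis, 1 passed in 9 mice and 2 without replicate 3, while 36 had a positive log2 fold change in either fit, with medians of 0.60 and 0.49. The mean log2 level of the list was 4.36 to 4.98 in treated mice, 3.95 to 4.35 in controls and 3.82 to 4.65 in DPBS mice, 30 of the genes being lower in controls than in DPBS mice. At 20 mg/kg, in other mice, 23 were higher and 23 lower (median -0.014). *Tcof1*, the nucleolar protein treacle, was at 53.3, 31.8, 108, 23.2 and 30.9 TPM against 17.7, 2.38, 3.86 and 37.2 TPM (2.25 ± 0.44, adjusted p = 0.0491, and 2.20 ± 0.46, adjusted p = 0.0273, without replicate 3). *Elp6*, a subunit of the Elongator complex that modifies transfer RNA, was at 302, 68.8, 1118, 107 and 141 TPM against 42.7, 44.1, 27.4 and 56.2 TPM, replicate 3 being the highest by far (2.44 ± 0.48 (adjusted p = 0.0491), and 1.90 ± 0.34 (adjusted p = 0.0105) without it). As log2 levels less the mean of the controls, *Tcof1* was at 1.22 to 3.38 in treated and -0.603 to 2.05 in DPBS mice. *Elp6* was at 0.724 to 4.73 and -1.48 to 1.71, so treated mice overlapped DPBS mice for both genes. *Dlgap5*, a spindle protein, was at 67.04, 61.5, 539, 23.99 and 72.7 TPM against 16.5, 6.56, 6.89 and 17.2 TPM (3.01 ± 0.54, adjusted p = 0.0295, and 2.40 ± 0.41, adjusted p = 0.00930, without replicate 3), and DPBS mice had 3.42 to 138 TPM (median 45.01). It was the only changed gene of 20 tested for mitosis and DNA replication.

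**Figure D4:**
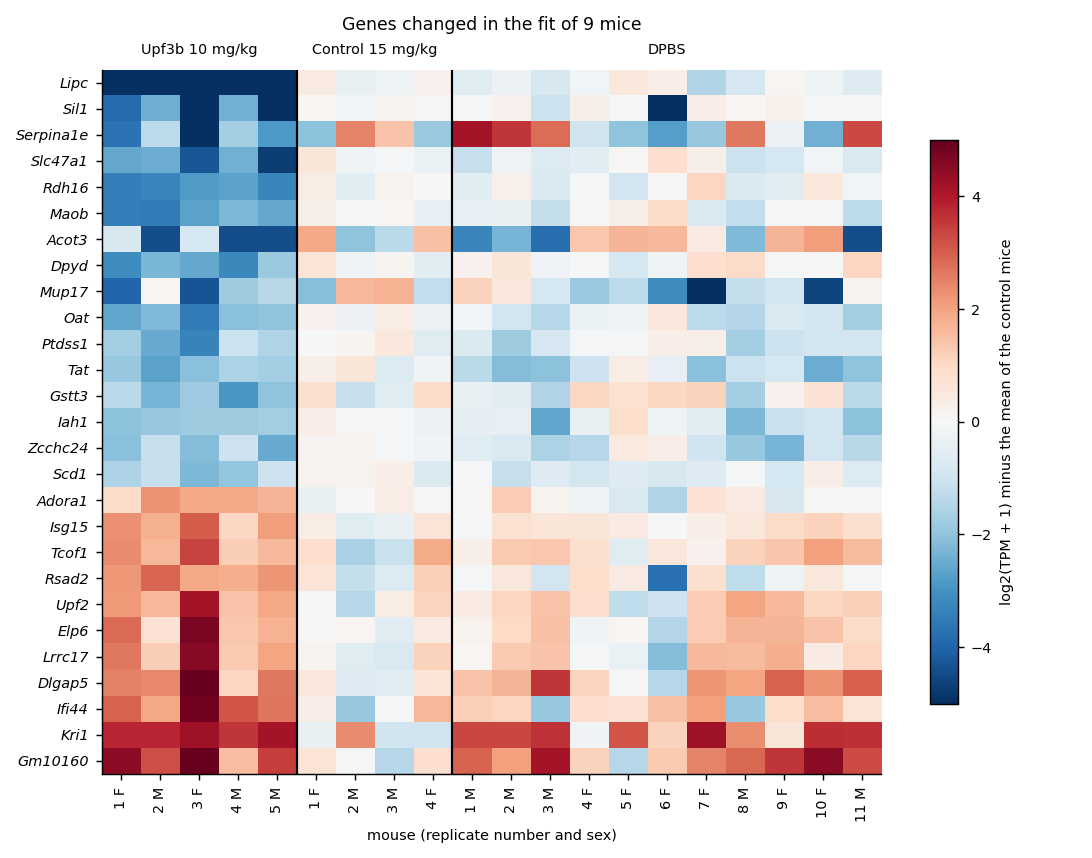
Log2(TPM + 1) of the 27 genes changed in all 9 mice, minus the mean of the 4 controls, in each *Upf3b*-GalNAc-ASO, Control-GalNAc-ASO and DPBS mouse (replicate number and sex below), from blue (lower) to red (higher). The 16 lowered genes are blue in the treated mice, except *Mup17* in the male replicate 2 (0.093). Replicate 3 is the deepest red for most of the 11 raised ones. The DPBS median lay between the control and treated medians for 10 of these 11 and for 14 of the 16 lowered ones, genes chosen for the gap between those groups.

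*Adora1*, an adenosine receptor, was at 181, 462, 355, 367 and 317 TPM against 73.2, 98.5, 124 and 94.9 TPM and at 33.4 to 232 TPM (median 99.2) with DPBS, and replicate 3 lay within its group. Its log2 fold change was 1.69 ± 0.30 (adjusted p = 0.0295), and 1.53 ± 0.27 (adjusted p = 0.00951) without replicate 3, and 1.68 against DPBS (adjusted p = 0.00952). *Lrrc17*, a secreted protein, was at 434, 161, 1612, 172 and 271 TPM against 77.5, 45.1, 40.03 and 154 TPM (2.52 ± 0.40 (adjusted p = 0.0164)), and *Gm10160*, a gene without a known role, at 59.4, 24.4, 359.8, 6.93 and 28.9 TPM against 3.40, 1.54, 0 and 3.86 TPM (4.19 ± 0.65 (adjusted p = 0.0130)). In both, replicate 3 was several times the next mouse, and without it the log2 fold changes were 2.11 and 3.58. Among genes raised only without replicate 3, *Capn6* (3.43), *Grip2* (3.33), *Vwa1* (3.28) and *Zfp280d* (3.17) rose most. In 9 mice they were at 2.97, 2.79, 2.66 and 4.09, with adjusted p of 0.0654, 0.0754, 0.118 and 0.0579. The DPBS medians of *Capn6* (27.4 TPM), *Grip2* (175 TPM) and *Zfp280d* (74.7 TPM) lay above every control and within the range of the treated mice. *Zcchc24* was lowered, at 29.1 to 84.01 TPM against 152 to 189.6 TPM (-1.82 ± 0.36, adjusted p = 0.0491, and -1.76 ± 0.34, adjusted p = 0.0198, without replicate 3). *Ezh1*, a histone methyltransferase, was raised without replicate 3 (2.42 ± 0.53, adjusted p = 0.0360, and 2.02 ± 0.57, adjusted p = 0.130, in 9 mice). Across all genes, controls against DPBS gave 0 of 8971 genes with an adjusted p under 0.05 by limma and 644 (7.18%) with an unadjusted p under 0.05. Controls were higher than DPBS mice for 17 of 18 glutathione S-transferase genes (median 0.33) and 16 of 20 for glucuronidation and sulfation (0.27). They were also higher for 25 of 33 lipoprotein genes (0.30) and 26 of 32 glucose genes (0.24), against 55.8% of all genes tested (0.07). *Upf3b*-GalNAc-ASO mice against DPBS gave 34 of 9032 genes (0.376%). These comparisons share mice with the main one. The DPBS median lay between the control and treated medians for 10 of the 11 raised and 14 of the 16 lowered genes. Without replicate 3 it did so for 34 of the 46 raised and 37 of the 45 lowered genes. For 9 more of the 46 it lay beyond the treated median.

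Of a list of 30 NMD substrates, which does not hold the NMD factors themselves, 16 were tested and none passed. Their median log2 fold change was -0.35 in 9 mice and -0.05 without replicate 3. The smallest p among them were those of *Srsf6* (-0.98 ± 0.40, adjusted p = 0.264, and -0.90 ± 0.39, adjusted p = 0.281, without replicate 3) and *Tra2b* (1.04 ± 0.44, adjusted p = 0.277, and 0.52 ± 0.30, adjusted p = 0.411, without replicate 3), splicing factors with poison exons. Gene-level TPM do not separate transcripts with and without such exons. Of 9 tested exon junction complex genes none passed, and their median was 0.12 in 9 mice and -0.022 without replicate 3. The study also counts the NMD factors *Upf1*, *Upf2*, *Upf3b*, *Smg1* and *Smg5* as NMD substrates. Of those, *Upf2* alone was raised, as given above, and *Upf1*, *Smg1* and *Smg5* did not pass in either fit. *Zfas1*, a host of small nucleolar RNAs outside the list, was at 221, 114, 97.5, 312 and 241 TPM against 90.1, 36.3, 30.3 and 23.4 TPM and at 24.9 to 94.8 TPM (median 49.4) with DPBS, every treated mouse being above every control. It rose without replicate 3 (2.46 ± 0.41 (adjusted p = 0.00929)), and had 2.16 ± 0.45 (adjusted p = 0.0592) in 9 mice. No gene of 10 for ASO uptake and RNase H passed, nor of 21 p53 targets, 23 NRF2 targets or 28 liver transcription factors tested in 9 mice. Of 24 heat shock genes, *Hsp90ab1* was raised without replicate 3 (1.08 ± 0.23, adjusted p = 0.0315, and 1.36 ± 0.32, adjusted p = 0.0740, in 9 mice), within the DPBS range of 2188 to 7654 TPM. In all, 17 of 849 tested genes in any list changed in 9 mice (2%) and 37 of 852 without replicate 3 (4.34%).

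In the other mice, at 20 mg/kg of each ASO, 236 of 9376 genes (2.52%) were changed, 87 raised (0.928%) and 149 lowered (1.59%). All 27 genes had the same direction there, as did 60.4% of 8745 genes tested at both, and 15 of the 27 were changed (55.6% of them and 6.36% of the 236), 4 of 11 raised and 11 of 16 lowered. Of the 91 genes, 84 had the same direction (92.3%, against 65.0% of 8779), and 30 were changed (33.0% of them and 12.7% of the 236), 11 of 46 raised and 19 of 45 lowered. The log2 fold changes at 20 mg/kg were -5.47 for *Lipc*, -3.63 for *Maob*, -2.97 for *Rdh16*, -2.37 for *Oat*, 1.55 for *Isg15*, 1.57 for *Adora1*, 2.69 for *Elp6* and 2.14 for *Zfas1*, all past the test. *Upf2* (0.66), *Kri1* (2.02) and *Tat* (-0.82) did not pass, and *Upf3b* was at -3.87 (adjusted p = 1.59e-05). The 7 genes with the opposite sign, named after their values were seen, were *Ezh1*, *Arfgap2*, *Nlrp12*, *Selenbp2*, *Hsp90ab1*, *Leap2* and *Wbp2*, each between -0.16 and 0.18 there. No gene had an adjusted p under 0.05 for the difference between the effects at 20 and 10 mg/kg, while 4 of the 27 and 17 of the 91 had an unadjusted p under 0.05. Both dose and control group differ between these comparisons.

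**Figure D5:**
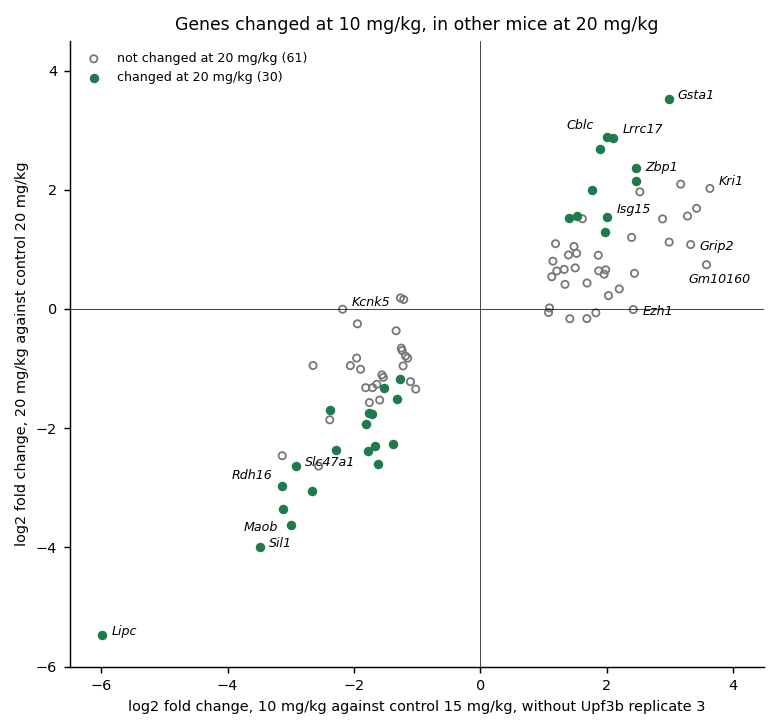
Log2 fold change of the 91 genes changed without replicate 3, at 10 mg/kg on the horizontal axis and in other mice at 20 mg/kg on the vertical axis; filled points (30) were also changed at 20 mg/kg. Lowered genes from *Lipc* to *Oat* lie in the lower left, and 84 of the 91 genes share their direction.

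The effect in males and females was compared by an interaction term. The 27 and the 91 genes, which had passed over both sexes together, had the same sign in males and females. No gene had an adjusted p under 0.05 for the interaction in 9 mice by limma, and 305 of 9166 had an unadjusted p under 0.05, 2 of them among the 27. Without replicate 3, where the *Upf3b*-GalNAc-ASO group has 1 female, assumed to vary like the other mice, 3 of 9203 genes had an adjusted p under 0.05 and 748 an unadjusted p under 0.05, and 0 and 5 of the 91 did.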

How the data were processed

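Total liver RNA of each mouse was sequenced. The authors deposited TPM per gene symbol, from Salmon 0.7.2 in quasi-mapping mode against mouse cDNA of GRCm38, after bcl2fastq 2.17.1.14. The labels name a kit for 3′ ends and the methods another kit. Each mouse has a smallest step, the worth of 1 read, and 69.9% to 81.5% of its nonzero values are whole numbers of steps (tolerance 0.02 reads). Reads were thus scaled without regard to transcript length, and levels were not compared between genes. Depth and the floor of 3 reads rest on the step and cover counting error only. The 26 symbols turned into dates were left out of 31198.

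limma 3.58.1 in R 4.3.3 (lmFit, eBayes with trend and robust) was fitted on log2(TPM + 1) to the 2 groups, with sex as a covariate and genes of at least 5 TPM median in either group, and p-values were adjusted by Benjamini-Hochberg. "Changed", "rose" and "fell" mean an adjusted p under 0.05. Values after ± are SE for log2 fold changes and SD for levels. Replicates are separate mice. The fit was checked on simulated data. All simulated mice shared the same spread for each gene and had no effect of sex. The check therefore does not cover a mouse that departs from its group, such as replicate 3. The test of the study, which draws on reference cohorts, was not repeated.

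Samples were grouped by their labels. The comparison, gene lists and tests were chosen with earlier results of these data known. Named genes are the NMD factors, all changed genes in 9 mice, the 15 largest rises and falls without replicate 3, and up to 4 changed members of each list, or the 2 with the smallest p. Some of these are not reported here. Comparisons with DPBS, the sex interaction and the difference between doses were added after seeing the data. Promoters and transcripts came from RefSeq and GENCODE M21 for GRCm38, and introns were not searched for ASO sites. Python 3.11.15, scipy 1.17.1 and matplotlib 3.10.9 gave the permutation tests and figures.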

Additional observations from a re-analysis of the deposited data

Results flagged for a closer look

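In 10 of 170 groups examined, the highest or lowest mouse stood apart from the rest of its group by Dixon's criterion, which chance meets in about 1 of 20 groups. Of these, 5 were *Upf3b*-GalNAc-ASO replicate 3: its median correlation with its group (0.661), the mean log2 level of the amino acid breakdown list (6.32), *Upf2* (681 TPM, the highest), *Tra2b* (446 TPM, the highest) and *Acot1* (0 TPM, the lowest). *Upf3b*-GalNAc-ASO replicate 1 was apart for *Zbp1* (70.2 TPM) and *Sult1a1* (289 TPM), and replicate 4 for *Cyp2c67* (164 TPM). Among the controls, replicate 4 had the lowest *Scd1* (2409 TPM) and replicate 3 the highest *Grip2* (27.0 TPM). Both control values lie on the side of the treated mice. The summed neutrophil markers were also highest in replicate 3 (941 TPM, against 264 to 395 TPM in the other treated mice), of which *Cxcr2* alone gave 933 TPM, while *Ly6g* and *Camp* were at 0 in all 9 mice.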

How the results depend on the processing

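The count of changed genes depended on the setting, and the cause was not tested. From 27 in 9 mice it came to 17 with a pseudocount of 0.5, 56 with 5, 13 without a filter on low values, 10 without the sex covariate, 388 with a weight for each mouse estimated from the data, and 16 without trend and robust. It was 2 to 431 with 1 mouse left out, 20 at a median of at least 10 TPM and 27 with centred mice. From 91 without replicate 3 it came to 142 with a pseudocount of 5, 36 without a filter, 35 without the sex covariate, 252 with weights and 8 without trend and robust. It was 18 to 232 with 1 more mouse left out, and 83 to 111 with a pseudocount of 0.5, a median of at least 10 TPM or centred mice. Changed list members went from 17 to 37 without replicate 3 and, in 9 mice, to 92 by the thresholds of the study on the p of limma.

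Whether replicate numbers pair the mice could not be decided from so few same-numbered mice. Correlations of their deviations from the fit ran from -0.18 to 0.36, and those of differently numbered mice from -0.34 to 0.33. With the replicate block over shared numbers 95 genes changed in 9 mice less replicate 5, and 13 in the same mice without the block, a fit added after seeing the data. Without replicate 3 the block gave 16 and no block 18. *Upf3b* with the block had a log2 fold change of -1.95.

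*Upf3b* was negative in every setting, from -1.16 to -2.22 in 9 mice with 1 mouse left out. Without replicate 3 it passed the test over all genes with a pseudocount of 5 (-1.83), with centred mice (-2.29), and when replicate 2 or 5 was also left out. Of the values of single genes in 9 mice under other settings of the fit, 534 kept direction and call, 67 lost the call, 73 gained it and 0 changed sign. Without replicate 3 these were 479, 190, 4 and 0. With 1 mouse left out, only NMD factors that did not pass changed sign. The values of 9 mice then ran from -0.10 to 1.05 for *Smg5* and -0.16 to 0.38 for *Smg6*. Without replicate 3 they ran from -0.0520 to 0.80 for *Upf3a*, -0.15 to 0.86 for *Smg1* and -0.34 to 0.0662 for *Smg6*. Depth limits genes near the floor of 3 reads, and most of all in replicate 3.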

Other observations

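Some genes outside the rule for named genes, picked after their values were seen, also changed without *Upf3b*-GalNAc-ASO replicate 3. The DNA sensor *Aim2* was at 345, 214, 342, 221 and 239.6 TPM against 130.1, 70.9, 91.8 and 192 TPM in the controls, every treated mouse above every control (1.34 ± 0.26, adjusted p = 0.0181, and 1.31 ± 0.28, adjusted p = 0.0640, in 9 mice), and DPBS mice had 77.7 to 466 TPM (median 231). *H2-Q4*, a class I histocompatibility gene with close copies, was at 181 to 424 TPM against 66.3 to 209 TPM (1.40 ± 0.29, adjusted p = 0.0273, and 1.34 ± 0.32, adjusted p = 0.0754, in 9 mice), and its log2 fold change at 20 mg/kg was 1.53. *Cblc*, a ubiquitin ligase, was at 61.1, 48.5, 39.2, 61.0 and 59.3 TPM against 7.50, 14.3, 12.7 and 25.8 TPM (2.000 ± 0.39, adjusted p = 0.0199, and 1.86 ± 0.40, adjusted p = 0.0640, in 9 mice), with 2.89 at 20 mg/kg. Among lowered genes, *Txnip*, which restrains glucose uptake, was at 8.77, 8.21, 0, 24.1 and 13.9 TPM against 45.2, 52.4, 51.3 and 42.1 TPM (-1.94 ± 0.39, adjusted p = 0.0228, and -2.73 ± 0.64, adjusted p = 0.0754, in 9 mice), with -0.25 at 20 mg/kg (adjusted p = 0.815). *Mfsd2a*, a transporter of lysophospholipids, was at 20.1 to 128 TPM against 134 to 378 TPM (-1.70 ± 0.38, adjusted p = 0.0426, and -2.16 ± 0.48, adjusted p = 0.0654, in 9 mice). The carboxylesterase *Ces1c* was at 728 to 2089 TPM against 2407 to 5182 TPM (-1.15 ± 0.26, adjusted p = 0.0447, and -1.44 ± 0.34, adjusted p = 0.0758, in 9 mice).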
